A study of Mus musculus with 15 samples.

Results

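The regions described here are stretches of chromatin that entered the strongest DNase I hotspots of control macrophages after 8 h of lipopolysaccharide (LPS) and were outside the strongest hotspots of macrophages labelled Ikzf KO at the same time. The libraries were made by DNase-seq from macrophages grown from C57BL/6J bone marrow. Cells were wild type (WT), Littermate control or Ikzf KO, and were harvested before LPS (0 h) or after 3 or 8 h with LPS at 10 ng/ml. Each time had 2 WT libraries, 1 Littermate library and 2 KO libraries, 15 in all; WT and Littermate are called controls here. The titles give 80 U of DNase for all libraries other than WT replicate 2, where they give 100 U. The labels do not say which exons the KO lacks, and do not tie replicates to animals or cultures, so the spread between replicates may be technical.

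LPS, from the outer envelope of Gram-negative bacteria, is sensed by macrophages through Toll-like receptor 4, which leads to the induction of cytokine, chemokine and interferon-response genes. Enhancers and promoters that become active in this response lose or shift nucleosomes and are then cut more readily by DNase I, and the authors listed such stretches as hotspots. Ikaros, encoded by Ikzf1, is a zinc finger DNA-binding protein best known from lymphocyte development, which works with chromatin remodelling complexes and can act as a repressor or an activator.

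To choose the regions, the 10 lists at 0 and 8 h were restricted to chromosomes 1 to 19 and each was cut to its 17237 hotspots of highest tag density, and overlapping hotspots were merged into 28702 regions. Of these, 1428 (4.98%) were held by each of the 3 control lists at 8 h and by no control list at 0 h; they are called control-opened. Among the control-opened regions 795 were in both KO lists at 8 h, 139 in 1 of them and 494 in neither. The 494 regions, 1.72% of all regions, are the members. The members were chosen by the tag densities of controls at 0 and 8 h and of KO at 8 h, so these values are given as a description. The libraries of KO at 0 h helped to define the merged regions but not membership, and those at 3 h took no part. Regions are named by their mm9 coordinates as listed by the authors, since no gene annotation of that build was used here. The number of members was 774 without WT replicate 1, 779 without WT replicate 2 and 808 without the Littermate, and it was 535 when hotspots were ranked by the deposited Z-score, of which only part were the same: 221 of the 494 regions overlapped a member of the Z-score ranking. Members under all 3 rankings, by highest density, mean density and Z-score, numbered 180 (36.4%).

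The libraries were not cut or weighted alike. On chromosomes 1 to 19 the deposited lists held 15042 to 50212 hotspots in WT, 50187 to 110569 in the Littermate and 107045 to 127374 in KO, and their lowest Z-scores were 7.98 to 10.6, 3.65 to 4.54 and 3.40 to 3.66. Over the 8446 regions in all 10 cut lists, the median highest density was 10.5 to 14.3 in the 6 control libraries at 0 and 3 h, 31.6 to 33.0 in the 4 KO libraries at these times and 35.1 to 42.1 in all 5 libraries at 8 h. A comparison of controls with KO at 0 or 3 h therefore crosses a gap in signal strength, as does one of controls at 3 h with controls at 8 h, and its part in the results was not tested. Ranks are therefore given beside densities where the times or genotypes are set side by side. If the authors scaled all libraries to one total, the spacing of the density values puts the KO libraries at 8 h at 0.850 and 1 of the deepest library and the controls at 8 h at 0.683 to 0.712, so depth and genotype cannot be told apart at 8 h.

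The members were not absent from KO chromatin in the lists as deposited. Of the 494, 472 (95.5%, Wilson 95% interval 93.3 to 97.0) had a hotspot in both deposited KO lists at 8 h, 8 had one in 1 list and 14 (2.83%, 1.70 to 4.70) in neither. Over all 28702 regions the share in both lists was 97.1% and in neither 1.88%. The median rank, with unlisted regions placed last, was 27198 of 120507 in KO replicate 1 and 26408 of 127374 in KO replicate 2. In the same regions it was 13063 in WT replicate 1, 12702 in WT replicate 2 and 11099 in the Littermate at 8 h. The members thus sat in the lower part of the control cut lists and mostly within a few list lengths of the cut in KO: the better of the KO ranks was within 1.5 times the cut for 273 members (55.3%), within 2 times for 372 (75.3%) and within 3 times for 450 (91.1%). KO replicates ranked the members alike, with a Spearman correlation of 0.80 over the 472 regions listed in both, while the ranks in the Littermate and in KO at 8 h were unrelated (-0.05 and 0.00 over 476 regions each). All of these points share a library within each list, and the rule bounds the ranks on both sides.

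**Figure D1:**
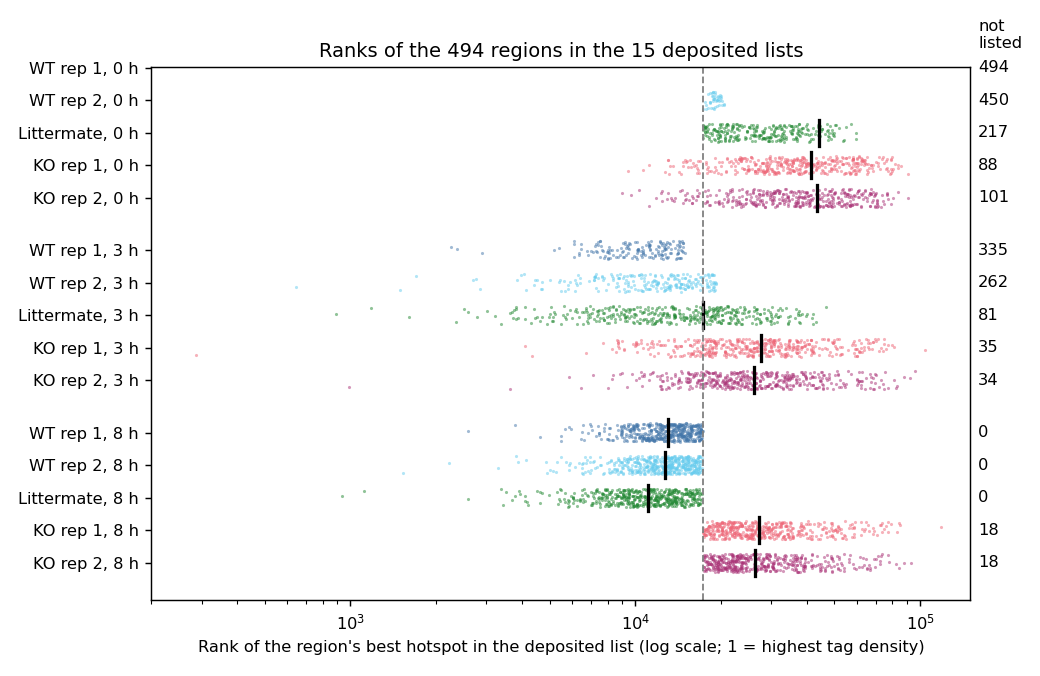
Rank of the best hotspot over each of the 494 members in the 15 deposited lists (log axis, 1 is the highest tag density); points are regions, black bars are medians with unlisted regions placed last, shown where more than 247 regions are listed, the dashed line is the cut at 17237, and the numbers at the right are regions not listed. At 8 h controls lie left of the cut and KO right of it by the rule; between 0 and 3 h the KO medians move left, from 41278.5 to 27616 in replicate 1 and from 43544 to 26042 in replicate 2.

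In highest tag density the members had a median of 18.4, 18.7 and 21.0 in WT replicate 1, WT replicate 2 and the Littermate at 8 h, against 12.3 and 12.6 in the KO replicates. Relative to the median of the regions in all 10 cut lists of the same library, these were 0.437, 0.535 and 0.594 in controls and 0.314 and 0.319 in KO. For control-opened regions in both KO cut lists the same relative medians were 0.492, 0.614 and 0.670 in controls and 0.700 and 0.705 in KO. Both KO values lay below all 3 control values in 416 members as deposited (84.2%, beside 16% of all regions) and in 411 after the division (83.2%, beside 18.5%), shares that the rule largely fixes. Over the 472 members with values in both KO libraries, the mean control density was 1.62 times the mean KO density at the median, from 0.949 to 10.8 times, and exceeded 2 times in 152 (32.2%). The members thus ranged from regions with several times less signal in KO to regions of equal signal.

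The cut itself separated regions of nearly equal signal. The 3 members closest to it were chr2:122397433-122399027, chr9:113573245-113574281 and chr11:33831485-33833238, whose better KO ranks at 8 h were 17240, 17260 and 17271. Their mean densities were 17.2 ± 2.24 (SD, n = 3), 15.4 ± 0.489 and 17.9 ± 3.59 in controls and 17.1 ± 1.67 (SD, n = 2), 16.1 ± 2.93 and 16.3 ± 2.59 in KO, so controls and KO overlapped in all 3. Just across the cut lay chr18:39537658-39538876, chr15:82817537-82818829 and chr5:125537585-125539135, with better KO ranks of 17233, 17231 and 17222. The first of these had 33.1 ± 8.51 in controls and 16.8 ± 2.06 in KO and still fell outside the rule, because KO replicate 2 held it within its cut list.

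**Figure D2:**
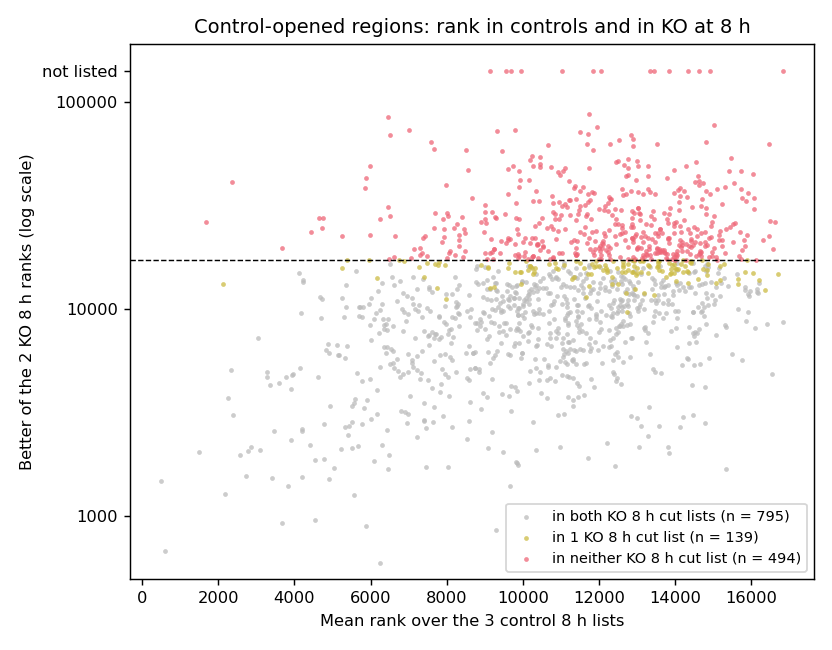
The 1428 control-opened regions by mean rank over the 3 control lists at 8 h (horizontal axis) and the better of the KO ranks at 8 h (vertical log axis; regions in neither deposited KO list at the top), coloured by presence in the KO cut lists; the dashed line is the cut. Members (n = 494) fill the band above the line and thin out upward, with 122 beyond 2 times the cut and 14 not listed.

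Among control-opened regions, members were rarer where the control signal was strong. Of the 46 control-opened regions with a mean control rank over 2500 and up to 5000, 5 were members (10.9%), as were 2 of the 10 ranked above them, whereas of the 89 with a mean rank over 15000, 45 were (50.6%). In between, members made up 14.7% of regions ranked over 5000 to 7500, 26.9% to 10000, 34.97% to 12500 and 45.9% to 15000. Control ranks and KO presence at 8 h both entered the rule, so these shares are a description. The part that scatter of ranks near the cut has in them was not tested. The 10 members with the best mean control rank are given one by one below, and each of them was also a member under the other 2 rankings.

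chr12:93040428-93043427 had the strongest control signal of all members. Its highest density at 8 h was 56.9 in WT replicate 1, 54.5 in WT replicate 2 and 64.9 in the Littermate, against 12.6 and 11.6 in the KO replicates. At 3 h it was 7.52, 13.5 and 14.0 in controls and 21.5 and 18.95 in KO, so that KO lay above every control at 3 h and below every control at 8 h on the deposited scale. No library listed the region at 0 h. In KO it ranked 10069 and 11893 at 3 h and 26420 and 28647 at 8 h, whereas in controls the rank went from 2781 to 9373 at 3 h to 931 to 2590 at 8 h.

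At chr1:135243910-135245998, KO stayed low throughout. The density at 8 h was 46.8, 47.9 and 61.3 in controls and 8.09 and 5.69 in KO, a ratio of means of 7.54. At 3 h it was 9.02, 14.7 and 17.6 in controls and 4.20 and 6.32 in KO, where the signal of strong regions is otherwise higher, and the groups did not overlap at either time.

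Another time course was seen at chr9:20938952-20942217, which KO listed before LPS. At 0 h the density was 16.2 and 12.5 in KO and 4.52 in the Littermate, and the WT lists did not hold the region. Densities at 3 h overlapped, with 17.8, 32.6 and 21.7 in controls and 21.8 and 16.9 in KO, whereas ranks did not, with 2247, 643 and 891 in controls and 10064 and 14072 in KO. At 8 h the densities were 41.5, 38.2 and 45.6 in controls and 15.9 and 16.4 in KO. The ranks at 8 h were 4613, 3827 and 2595 in controls and 20091 and 19766 in KO, so every library ranked the region lower than at 3 h.

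In another 2 of the strongest members KO ranked below every control at both 3 and 8 h. chr10:57538241-57539716 was in no list at 0 h and had 36.1, 34.0 and 41.0 in controls against 10.3 and 12.1 in KO at 8 h. At 3 h its densities overlapped, with 6.01, 10.3 and 13.1 in controls and 7.84 and 8.90 in KO, while its ranks were 12399, 8854 and 3207 against 37055 and 31386. chr17:47292502-47293968 had 32.4, 40.6 and 40.6 in controls and 14.0 in both KO replicates at 8 h, after 5.09 and 5.44 in KO at 0 h and 14.6 and 12.3 at 3 h. Controls had 11.0, 11.5 and 8.58 at that time, below both KO values, although their ranks of 5201, 7292 and 8356 were above those of KO, 18103 and 21343.

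At chr1:87504829-87505697 the time course differed between density and rank. KO had 22.9 and 22.7 at 3 h and 10.3 and 13.3 at 8 h, while WT replicate 2 and the Littermate went from 22.2 and 19.4 to 36.4 and 37.3. By rank all 4 of these libraries went down from 3 to 8 h, KO from 9093 and 8963 to 32031 and 24626, WT replicate 2 from 1695 to 4130 and the Littermate from 1181 to 4107. WT replicate 1 did not list it at 3 h and had 34.8 at 8 h. In the remaining 4 of the 10, all densities at 8 h were 26.1 to 40.3 in controls, with KO at 5.30 to 14.5. They lay at chr17:74899625-74901067, chr6:120944102-120945135, chr1:173590143-173592513 and chr6:146564855-146566096. The last was in no list of any genotype at 0 or 3 h and was listed by all 5 libraries at 8 h, at ranks of 3909 to 8679 in controls and 42974 and 49047 in KO.

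**Figure D3:**
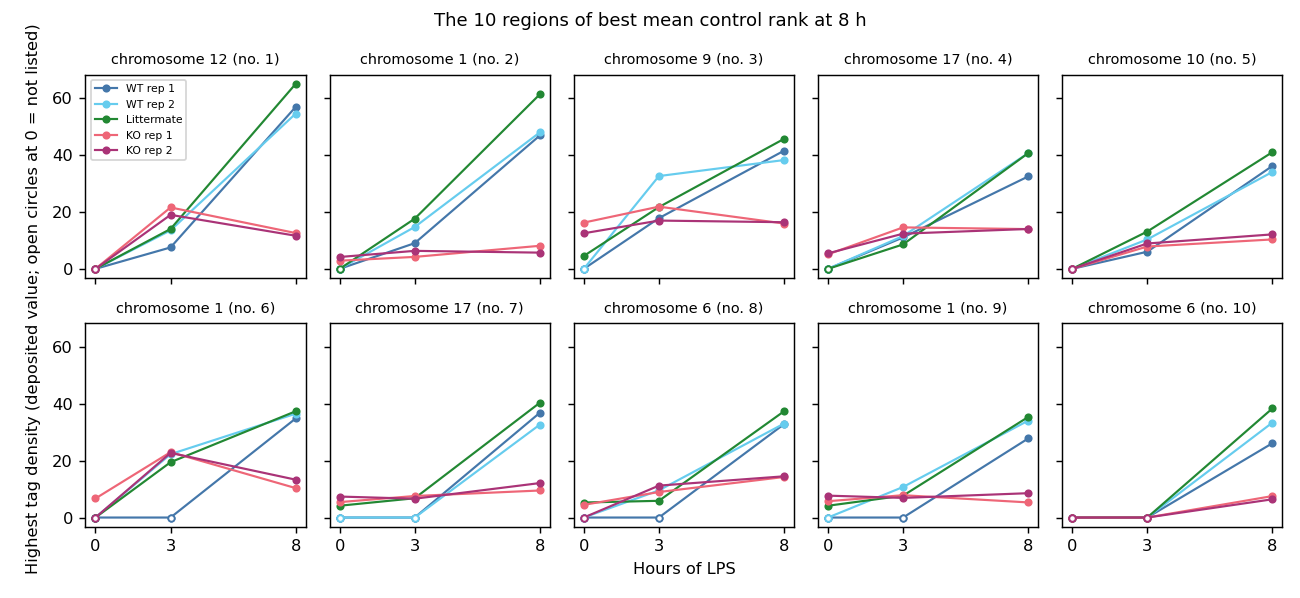
Highest tag density (deposited value, vertical axis) against hours of LPS in the 5 series of libraries for the 10 members of best mean control rank at 8 h, numbered by that rank; open circles at 0 mark libraries that do not list the region. At 8 h the controls lie at 26.1 to 64.9 and KO at 5.30 to 16.4 in these regions, and in numbers 1, 3 and 6 both KO lines are lower at 8 h than at 3 h. Control densities at 0 and 3 h are on a lower scale than the others, so slopes of control lines are not slopes of rank.

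The 14 members that neither deposited KO list held at 8 h were of middling strength in controls. When hotspots were ranked by Z-score, 10 of the 14 were not members. The strongest 5 of them were chr1:139921591-139923072, chr13:5816070-5817146, chr13:5817186-5818452 and chr13:5822284-5823184, and chr6:17565459-17567181. Their densities at 8 h ranged from 15.4 to 29.4 over the 3 controls, around the median of the members. The region on chromosome 1 was listed in KO at 3 h, at ranks of 75624 and 69156, and the last of the chromosome 13 regions by KO replicate 1 alone at 3 h, at 30570. Of the 14, 11 were in no deposited control list at 0 h either (2.23% of members, beside 0.181% of all regions), a count that the rule bears on. In none of the 6 KO lists were 6 members (1.21%), a share near the 1.10% of all regions.

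The regions on chromosome 13 stood side by side, a group chosen after its values were seen. With one more member, chr13:5827441-5828735, they spanned 12666 bp, the run with the most members when members at most 50 kb apart were joined. None of the 4 was in any list at 0 h. At 3 h the hotspot of KO replicate 1 named above was the only one over them in 5 libraries. At 8 h that last region had 23.7, 16.0 and 18.7 in controls and 9.25 in KO replicate 2, and KO replicate 1 did not list it. No region shared with both KO 8 h lists lay within the run.

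The libraries at 3 h did not enter the rule. Cut to 15042 hotspots each, they held 159, 174 and 215 of the members in WT replicate 1, WT replicate 2 and the Littermate. The KO replicates held 62 and 56. As shares of members these were 32.2%, 35.2% and 43.5% in controls and 12.6% and 11.3% in KO. Of all regions the lists held 46.6%, 46.4% and 46.3% in controls and 51.3% and 50.9% in KO. Members were thus below the share of all regions in every library, and further below it in KO. Of the 795 control-opened regions in both KO 8 h lists, the same lists held 381, 444 and 515 in controls and 603 and 628 in KO. By region, 66 members (13.4%, Wilson 95% interval 10.6 to 16.6) were in all 3 control lists and neither KO list, beside 2.07% of all regions, and 6 (1.21%, 0.558 to 2.62) showed the reverse, beside 5.39%. Members were outside the KO 8 h cut lists by the rule, so all regions are an unlike background for absence from KO lists. Of 6211 other regions that no KO 0 h or 8 h cut list held, 3.86% were in all 3 control and neither KO list. The reverse held for 0.225% of these, so members had the larger share in both directions. For the 795 shared regions the counts were 13 and 70. For a single region, 3 against 2 libraries cannot reach an exact two-sided permutation p below 0.1, so no single region passes 0.05. The 66 became 74 to 92 when 1 of the 5 libraries at 3 h was left out, and 2 when the lists were used as deposited, where KO lists are the longest.

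The Littermate list goes down to a Z-score of 4.54 at 3 h and is the control list nearest to those of KO (3.54 and 3.58). The Littermate alone ranked 329 members (66.6%, 62.3 to 70.6) above both KO replicates at 3 h and 105 (21.3%, 17.9 to 25.1) below both, beside 33.8% and 54.1% of all regions. The deposited Littermate list at 3 h was shorter than the KO lists, and a region it did not hold was ranked below KO. Among shared regions the Littermate ranked 263 of 795 above and 426 below both KO replicates. Of 6211 other regions that no KO 0 h or 8 h cut list held, it ranked 46.0% above and 39.2% below both.

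Members differed in how many of the control 3 h lists held them. Absence from a cut list does not show that a region was closed at 3 h, so no time of opening is read from these counts. In the 3 h lists of equal length 102 members (20.6%) were in all 3 control lists, beside 34% of all regions, 172 (34.8%) in 1 or 2, beside 25.8%, and 220 (44.5%) in none, a share near the 40.3% of all regions. Members in none of the 5 lists at 3 h numbered 202 (40.9%, beside 31.0% of all regions). In KO, 413 (83.6%, beside 44.0%) were in neither 3 h list and 37 (7.49%) in both, beside 46.2% of all regions. Of the shared regions 561 of 795 (70.6%) were in both. Of 6211 other regions that no KO 0 h or 8 h cut list held, 95.9% were in neither and 0.902% in both.

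**Figure D4:**
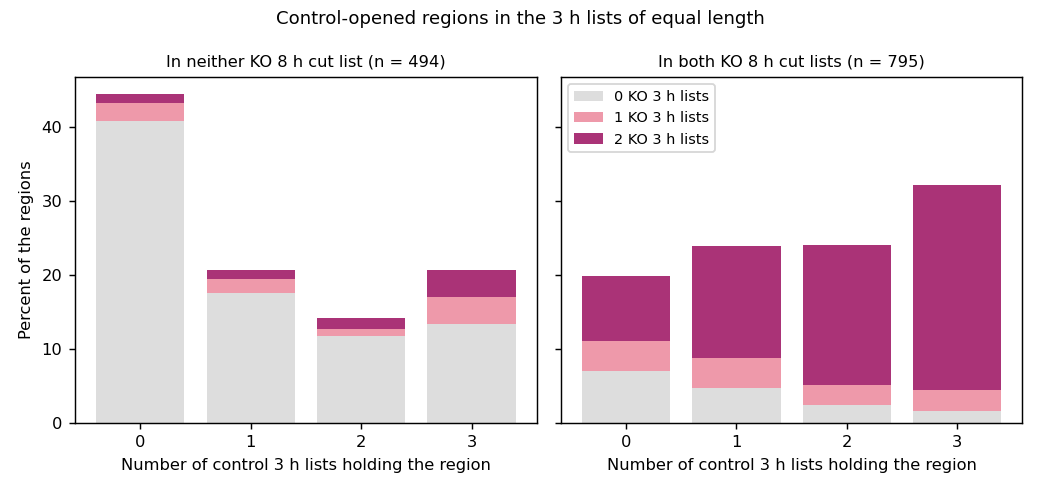
Percent of control-opened regions (vertical axis) held by 0 to 3 of the control 3 h lists of 15042 hotspots (horizontal axis), with the shade giving the number of KO 3 h lists that hold them; members (n = 494) on the left, regions in both KO 8 h cut lists (n = 795) on the right. Most members are in 0 KO lists at 3 h (83.6%) and the largest single class is in none of the 5 lists (40.9%), while among shared regions 70.6% are in both KO lists.

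The members in all 3 control and neither KO 3 h list were led, by control rank at 3 h, by chr1:135243910-135245998, described above. Next came chr19:34650860-34653762, with 8.27, 18.3 and 12.6 in controls and 10.1 and 11.2 in KO at 3 h, and 24.7, 24.0 and 32.0 against 12.3 and 13.5 at 8 h. Its control ranks at 3 h were 7966, 2849 and 3678 and its KO ranks 28075 and 23609. At 3 h the densities themselves overlapped while the ranks did not, since a given density stands at a lower rank in the KO lists. Another member, chr19:34643991-34645948, was of the same class.

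The longest member of all, chr16:97665350-97673108 (7759 bp), had control ranks of 6100, 4134 and 5222 and KO ranks of 29846 and 29162 at 3 h. chr12:33701513-33702763 had control ranks of 8873, 3976 and 3020 and KO ranks of 17049 and 17566, so its KO ranks lay just past the cut. The fifth, chr1:37043231-37045683, had 6459, 5475 and 4100 against 19017 and 24292. In these 3 regions control densities at 8 h ranged from 20.7 to 29.6, against 9.21 to 14.5 in KO.

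Before LPS the members were weak in KO as well. Of the 494, 20 (4.05%, 2.64 to 6.17) were in both KO 0 h cut lists, beside 53.4% of all regions, and 213 of the 795 shared regions (26.8%, 23.8 to 30.0) were. The KO 0 h lists did not decide membership, and ranked by Z-score the share of members was 2.06%. The rule did keep members out of the control 0 h and KO 8 h cut lists, which bears on a low share here. All regions include the 8446 that every cut list held. As deposited, both KO 0 h lists held 381 members (77.1%, beside 95.5% of all regions) and neither held 76 (15.4%, beside 2.93%). The Littermate list at 0 h, with 61651 hotspots on these chromosomes, held 277 (56.1%, beside 84.7%). No deposited control list at 0 h held 215 members (43.5%, beside 12.6%), a count that the rule bears on.

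Most members gained rank in KO after LPS. From 0 to 3 h, times at which KO did not enter the rule, both KO ranks at 3 h were above both KO ranks at 0 h in 304 members (61.5%, 57.2 to 65.7), beside 28.6% of all regions. The reverse held for 56 (11.3%, 8.83 to 14.4), beside 35% of all regions. Of 6211 other regions that no KO 0 h or 8 h cut list held, 22.5% rose and 35.6% fell in this sense. The shared regions rose in 667 of 795 cases (83.9%) and fell in 28. With 2 against 2 libraries no single region can reach an exact two-sided permutation p below 0.333. The inferred relative depth, if the libraries were scaled to one total, went from 0.745 to 0.848 in KO replicate 1 and from 0.741 to 0.826 in KO replicate 2 over these times, and its part in the count was not tested.

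**Figure D5:**
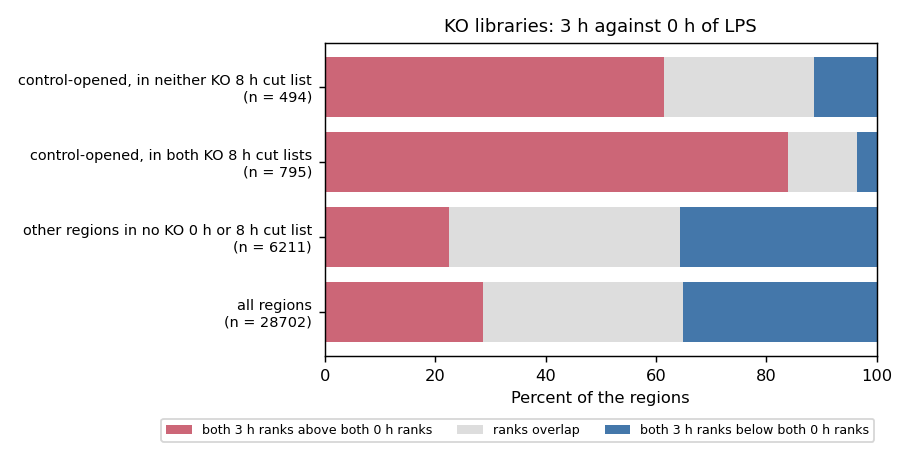
Percent of regions (horizontal axis) in which both KO 3 h ranks were above, overlapped with or were below both KO 0 h ranks, for members, shared control-opened regions, other regions in no KO 0 h or 8 h cut list, and all regions. Members rose in 61.5%, between the shared regions (83.9%) and all regions (28.6%).

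The density ratio of KO from 0 to 3 h had a lower median in members than in the shared regions. Among members listed at both times, the density at 3 h was 1.45 times that at 0 h in both KO replicates at the median (n = 396 and 381 regions), and that at 8 h was 1.58 and 1.59 times (n = 405 and 389), a value that the rule holds down in members and up in shared regions. Both KO ranks were above those of 0 h in 305 members at 8 h (61.7%, beside 31.7% of all regions) and below in 62 (12.6%, beside 39.2%), counts in which the rule bounds the ranks at 8 h. For shared regions the medians were 1.84 and 1.87 at 3 h and reached 2.41 and 2.49 at 8 h, and for regions in all 10 cut lists 0.948 and 0.939 at 3 h and 1.16 at 8 h in both. KO replicate 1 added 63 members to its list between 0 and 3 h and lost 10, and KO replicate 2 added 79 and lost 12. The listed share of members went from 82.2% to 92.9% and from 79.6% to 93.1%. For all regions it went from 96.4% to 97.3% and from 96.2% to 97.3%. The lists themselves grew on these chromosomes, from 107045 to 115966 and from 108292 to 112044 hotspots, and the part of this growth in the gains was not tested. Between 3 and 8 h, 131 members rose in both KO replicates and 165 fell, beside 27.6% and 25.9% of all regions (26.5% and 33.4% of members); the KO 8 h ranks are bounded by the rule, and nothing is read from this count.

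The 37 members that both KO lists held at 3 h, and by the rule neither at 8 h, include regions strong in every genotype at 3 h; the following were picked after their values were seen. At chr7:133736872-133740560, densities at 3 h were 17.3, 23.8 and 15.4 in controls and 35.5 and 37.0 in KO. At 8 h they were 19.4, 23.3 and 23.0 in controls and 11.7 and 15.4 in KO, so the KO densities were lower than at 3 h and those of controls were not, apart from a small drop in WT replicate 2. By rank every library went down from 3 to 8 h: controls from 2359, 1496 and 2356 to 12410, 9373 and 9751, and KO from 4084 and 3629 to 28056 and 21193. Of the 37, 35 (94.6%) had risen from 0 to 3 h in both KO replicates, beside 28.6% of all regions. The 37 were chosen by their KO ranks at 3 h, which largely fixes this count, and nothing is read from it.

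A pair of members lay close together on chromosome 11, chr11:83335501-83341353 and chr11:83342715-83344851. A single hotspot covered both in each KO library at 3 h, at ranks of 10029 and 10565 and densities of 21.8 and 20.7, so the 2 regions have no separate KO value at that time. At 8 h the first had 18.1, 21.2 and 21.3 in controls and 9.21 and 11.9 in KO, and the second had 32.1, 27.4 and 30.6 against 15.1 and 17.6. No library listed either region at 0 h. In both regions the KO values at 8 h lay below all control values.

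The highest KO rank of any member at 3 h came from 1 library alone. At chr2:152989920-152990958, KO replicate 1 had a density of 90.1 at 3 h (rank 287), KO replicate 2 had 12.1 (rank 21537) and no control listed the region. At 8 h the same region had 22.7, 22.9 and 27.0 in controls and 12.6 and 11.4 in KO.

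Members were short and lay nearer to each other than regions at large. Their median length was 1328 bp (667 to 7759), against 1756 bp for shared control-opened regions, 2271 bp for regions in all 10 cut lists and 1541 bp for all regions; a region spans the hotspots of each cut list that holds it, so length also follows the number of lists. Within 50 kb of a member lay another member in 93 of 494 cases (18.8%), against 6.36% of all regions and 13.2% of shared regions. The share among members was 9.72% when ranked by Z-score and 5.23% with lists of 0.5 times the length. It was 22.4% by mean density and 32.7% with the Littermate as the only control. Some neighbouring members lay less than 500 bp apart, and with hotspots within 500 bp merged the share was 13.7%. A shared region lay within 50 kb of 19.8% of members and 25.9% of shared regions, beside 11.1% of all regions. A region open in all 10 cut lists lay within 50 kb of 60.9% of members and 59.2% of all regions. Joined at gaps of up to 50 kb, the members formed 401 lone regions, 37 pairs and 6 runs of 3 or 4.

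One of the runs, at chr18:75028956-75071383, held 3 members and was picked after its values were seen. In the first of them, chr18:75028956-75030983, KO ranked 32356 and 21809 at 3 h and 63906 and 58088 at 8 h, against 2513 to 12388 and 8195 to 11224 in controls. Another run, chr6:17543383-17606142, also held 3, of which the middle one is the region in no KO list named above. The last of these, chr6:17604584-17606142, had 7.77, 10.3 and 10.4 in controls and 8.68 and 8.33 in KO at 3 h, and 16.4, 21.9 and 22.0 against 4.19 and 4.51 at 8 h. Its ranks at 3 h did not overlap, with 8685, 8596 and 5485 in controls and 33528 and 33510 in KO. All 19 chromosomes held members, from 13 on chromosome 8 (0.874% of its regions) to 43 on chromosome 11 (1.93%), and the highest share was 2.34% on chromosome 13.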

How the data were processed

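DNase-seq hotspot lists of 15 libraries were used: 2 WT, 1 Littermate and 2 KO libraries at each of 3 times. The authors deposited 1 list per library and called each library separately. The submitters' processing notes name CASAVA and build mm9. Neither the alignment program nor how hotspots were called or thresholded is given in the sources used here. In the deposited lists, per the file headers, a hotspot carries its highest (MaxD) and mean (AveD) tag density, which is a signal, a Z-score and a p-value. Whether the authors scaled the libraries is not stated, and without read counts the depth is unknown. The p-values deposited by the authors were not used further. The score column, deposited by the authors as a Z-score per hotspot, served as an alternative ranking.

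Lists were restricted to chromosomes 1 to 19, ranked by MaxD (ties by AveD, then position) and cut to 17237 hotspots, the length of the shortest list at 0 or 8 h; WT replicate 1 at 0 h, with 16572 hotspots on these chromosomes, was kept whole. Hotspots sharing 1 bp were merged, and coordinates were taken as closed intervals as listed. Each region took the best rank among the hotspots overlapping it in a deposited list, and a region not listed ranked last. At 3 h lists were cut to 15042 hotspots, the length of the shortest. No test across regions was run: the members were chosen on these lists, 3 against 2 libraries cannot give an exact two-sided permutation p below 0.1, and 2 against 2 cannot give one below 0.333. Wilson 95% intervals cover counting only, and neighbouring regions are not independent. The membership rule was run on simulated lists over the 28702 regions with 200 planted members, and only the rate of missed hotspots was varied. When no hotspot was missed, 100% were recovered. At rates of 0.02 and 0.1 missed hotspots, 96.0% and 73.0% were recovered, with 0 and 2 false members. Scatter of ranks near the cut was not varied, so these values give no error rate for the members described here. Members, lists and rules were chosen with earlier results of these data known.

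Regions were named by rule: the 10 of lowest mean control rank at 8 h, the 5 such regions in neither deposited KO 8 h list, the 5 of lowest mean control rank at 3 h among those in all 3 control and neither KO 3 h list, and the 3 nearest to the KO cut on either side. Other regions were chosen after their values were seen, also where the text does not say so beside them. Only annotation of build GRCm38.p6 was at hand, so no gene, promoter or sequence was assigned to a region, and the gene lists and cell type markers of the design were not used here. Python 3.11.15, numpy 2.4.6, pandas 2.3.3 and scipy 1.17.1 were used.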

Additional observations from a re-analysis of the deposited data

How the results depend on the processing

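The number of members followed the length of the KO lists: 221, 122 and 44 regions with KO 8 h lists 1.5, 2 and 3 times as long, and 14 with KO lists as deposited, alternatives chosen after seeing the data. It was 172 with lists of 0.5 times the length, 1903 with the Littermate as the only control and 549 to 808 with 1 series of libraries left out; fewer control lists make the rule easier to meet. With all lists as deposited 401 regions met the rule, of which 10 of the 494 were part, and with lists of 0.5 times the length 22 of the 494 were. The share of members in both deposited KO 8 h lists was 99.4% at 0.5 times the length, 94.8% to 96.9% with 1 series left out, and 90.05%, 82.0% and 56.8% with the longer KO lists, which remove the listed regions by construction. The share in both KO 0 h cut lists was 2.06% ranked by Z-score, 2.00% by mean density, 6.98% at 0.5 times the length, 6.48% as deposited, 15.0% with 50% of a region covered, 7.62% with the Littermate alone, 4.62% to 8.17% with 1 series left out, and 0.452%, 0, 0 and 0 with KO lists 1.5, 2 and 3 times as long and as deposited. Members in all control and no KO list at 3 h numbered 18 at 0.5 times the length, 4 with all lists as deposited, 11 with 50% covered, 422 with the Littermate as the only control, 74 to 123 with 1 library or series left out (78 and 79 without KO replicate 1 and KO replicate 2), and 37, 22, 10 and 1 with the longer KO lists. Among the 494 they numbered 7 with 3 h lists of 0.5 times the length, 2 as deposited and 160 with the Littermate as the only 3 h control. Members within 50 kb of another made up 9.72% by Z-score, 5.23% at 0.5 times the length, 11.0% as deposited, 13.7% with hotspots within 500 bp merged, 32.7% with the Littermate alone, 20.04% to 22.4% with 1 series left out, and 11.8%, 9.84% and 11.4% with KO lists 1.5, 2 and 3 times as long. The count of members that rose in KO from 0 to 3 h was 313 by Z-score, 326 by density and 363 to 364 with 1 KO replicate. The cause of these shifts was not tested other than where stated. No paired analysis was possible because no result comes from a test; density ratios within each KO series of libraries are given as values only, and the labels do not tie equal replicate numbers at different times to 1 animal or culture. Depth is unknown, so a region not listed may lie below a library's threshold.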
